A study of Homo sapiens with 2 samples.

Results

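The genes described here encode vimentin (VIM), nestin (NES), synemin (SYNM), desmin (DES), the lamins (LMNA, LMNB1 and LMNB2) and the cytolinkers plectin (PLEC), dystonin (DST) and MACF1. They are 10 of the 56255 gene symbols of the table, taken by symbol, and each stood on 1 row. Their levels were measured by RNA sequencing in 2 libraries of A549, an established human lung adenocarcinoma line grown in DMEM with serum. One library (WT) came from untreated wild-type cells and the other (MYOCD) from cells overexpressing MYOCD, the gene of myocardin, which coactivates the transcription factor SRF. The labels do not state the vector, the duration of expression or whether the MYOCD cells were 1 clone, and the WT cells are labelled as untreated rather than as carrying an empty vector. The WT values also carry the name A549_rtt, whose last part the labels do not explain. With 1 library in each group no value has a replicate error, so no test was run and every difference below compares these libraries only.

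Intermediate filaments are rope-like polymers that give cells tensile strength. Vimentin builds the filaments of mesenchymal cells and of many carcinoma lines, where it is often read as a mark of epithelial-mesenchymal transition, and desmin takes that place in muscle. Nestin and synemin are large relatives that enter vimentin or desmin filaments as partners. Lamins form the mesh under the inner nuclear membrane: LMNA gives lamins A and C by alternative splicing, while LMNB1 and LMNB2 encode the B-type lamins, which keep their farnesyl anchor to the membrane. Plectin, dystonin and MACF1 belong to the plakin family of giant linkers that tie filaments to junctions, actin and microtubules.

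Levels are RPKM, that is, reads per kilobase of gene model and scaled to the size of the library, so that levels of different genes are on a scale per length. Because the gene lengths the authors used are not known, ratios between genes below hold only on that scale. The log2 change is log2((MYOCD RPKM + 0.5)/(WT RPKM + 0.5)), on which low genes show less than their ratio. A gene was counted when it reached 1 RPKM in at least 1 library, and was called higher or lower at 2-fold or more on that scale, which is a rule of size. MYOCD itself had 0.304 RPKM in the WT library and 48.6 in the MYOCD library, in the direction of the labels. RPKM totals were 886700 in WT and 880876 in MYOCD. The epithelial keratins KRT7, KRT8 and KRT18 lay between 996 and 1647 RPKM in both libraries, and all 6 endothelial markers examined lay under 1 RPKM in both.

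Because MYOCD acts through SRF, the 250 bases before each RefSeq start site (GRCh38.p14) were searched on both strands for the CArG box, the SRF motif. Of the 10 genes 8 had entries, 15 in all, and 0 of the 15 held a CArG box, against 1.16% of the 35116 promoters of the same length. This says only that these letters are not in those windows. The GC box GGGCGG, read as CCGCCC on the other strand, stood in 10 of the 15 and in 42.6% of all promoters. The 15 windows are not independent, since LMNA, DST and MACF1 have 3 each and LMNB1 has 2. The second windows of LMNA, LMNB1 and MACF1 begin inside a GENCODE exon of their gene. Shown here are the windows of VIM and SYNM, the genes past the filter with the highest and the lowest change, and the first of 3 windows of LMNA, whose level hardly differed. Each is printed 5′ to 3′ on the gene's plus strand, with GC boxes in capitals. VIM is shown at chr10:17227991-17228240 and LMNA at chr1:156082323-156082572. SYNM is shown at chr15:99104830-99105034, the 205 bases of its window that lie in no GENCODE exon of the gene. This stretch lies inside the gene model, in an intron of the 1 transcript that starts at 99098217 and before the start of the other 3 of its 4 transcripts.
VIM: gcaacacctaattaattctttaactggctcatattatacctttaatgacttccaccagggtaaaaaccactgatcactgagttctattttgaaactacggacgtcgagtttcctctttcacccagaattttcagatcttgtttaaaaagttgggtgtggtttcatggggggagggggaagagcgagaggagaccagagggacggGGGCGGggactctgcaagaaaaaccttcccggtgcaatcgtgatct
SYNM: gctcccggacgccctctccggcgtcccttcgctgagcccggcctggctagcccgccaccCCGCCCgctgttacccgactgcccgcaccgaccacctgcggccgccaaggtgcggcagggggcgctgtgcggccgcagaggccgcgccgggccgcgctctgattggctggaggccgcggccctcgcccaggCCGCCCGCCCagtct
LMNA: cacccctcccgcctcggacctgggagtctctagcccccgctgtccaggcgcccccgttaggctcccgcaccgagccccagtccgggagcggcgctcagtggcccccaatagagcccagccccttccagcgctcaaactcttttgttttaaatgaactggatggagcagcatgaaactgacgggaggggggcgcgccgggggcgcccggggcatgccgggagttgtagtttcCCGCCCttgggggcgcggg
The VIM window holds 1 GC box and has a GC content of 46.0%, under the median of 58.0% over all promoters. The full SYNM window holds 4 GC boxes, of which 3 lie in the part shown, and has a GC content of 78.8%. That of LMNA holds 1 and has 68.8%.

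VIM was the most abundant of the filament genes that assemble in the cytoplasm among the 10, and had the highest change of them. It had 350.3 RPKM in the WT library and 493 in the MYOCD library, a ratio of 1.41 and a log2 change of 0.49. It moved from place 252 to place 190 in the order of all symbols by level. Of the 17350 genes counted, 14.1% had a higher change than VIM, so a difference of this size was not rare between these libraries. In GRCh38, VIM occupies chromosome 10 from 17228259 to 17237593 (plus strand). An antisense gene, AL133415.1, shares 619 nt of exon with it on the other strand, which is 87.7% of the antisense model. AL133415.1 had 99.7 RPKM in the WT library and 138.8 in the MYOCD library, a ratio of 1.39 beside the 1.41 of VIM. VIM-AS1, which shares 641 nt or 32.2% of its own model, stood at 1.95 and 1.41 RPKM. Its ratio of 0.726 went the other way from that of VIM. No source used here states whether reads were counted by strand, so reads of VIM and of these partners cannot be told apart.

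SYNM went the other way. Synemin does not assemble alone and joins vimentin or desmin filaments, linking them to actin-based adhesion sites. It had 21.9 RPKM in the WT library and 14.9 in the MYOCD library, a ratio of 0.681 and a log2 change of -0.54, the lowest of the genes counted here. In all, 14.6% of genes had a lower change. The level of VIM over that of SYNM was 16.0 in WT and 33.1 in MYOCD. SYNM occupies chromosome 15 from 99098217 to 99135593 (plus strand) and also has an antisense partner, AC036108.2, which shares 2027 nt of exon with it, or 25.9% of the SYNM model. AC036108.2 stood at 27.7 and 19.5 RPKM, a ratio of 0.705, again close to that of the coding gene, and the same limit on strand applies.

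NES (chromosome 1, 156668763 to 156677397, minus strand) and DES (chromosome 2, 219418377 to 219426739, plus strand) did not reach 1 RPKM in either library and were not counted. NES, a filament gene of neural and muscle progenitors, had 0.568 RPKM in the WT library and 0.159 in the MYOCD library. Its log2 change of -0.70 was -1.37 with a pseudocount of 0.1 RPKM and -0.44 with 1 RPKM, so at this level its size depends on the pseudocount. DES, the muscle member, stood at 0.0678 RPKM in WT and was listed at 0 in MYOCD. Of the 8 smooth muscle markers, DES among them, 4 were counted. All 4 stood above 0 with a median of 0.48, and 1 was called higher, beside 5.42% of all genes counted. Such a count in so short a list is no result about these markers. Of the markers under the filter, CNN1 (0.355 and 0.328 RPKM) and DES stood lower in MYOCD. ACTG2 (0 and 0.166) and LMOD1 (0.0752 and 0.139) stood higher. The marker called higher was TAGLN (2.34 and 6.93 RPKM), while SMTN stood at 12.1 and 18.2, ACTA2 at 8.28 and 8.97 and MYH11 at 0.830 and 1.24. MYH11 passed the filter through the MYOCD library only, so it could stand only above 0.

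**Figure D1:**
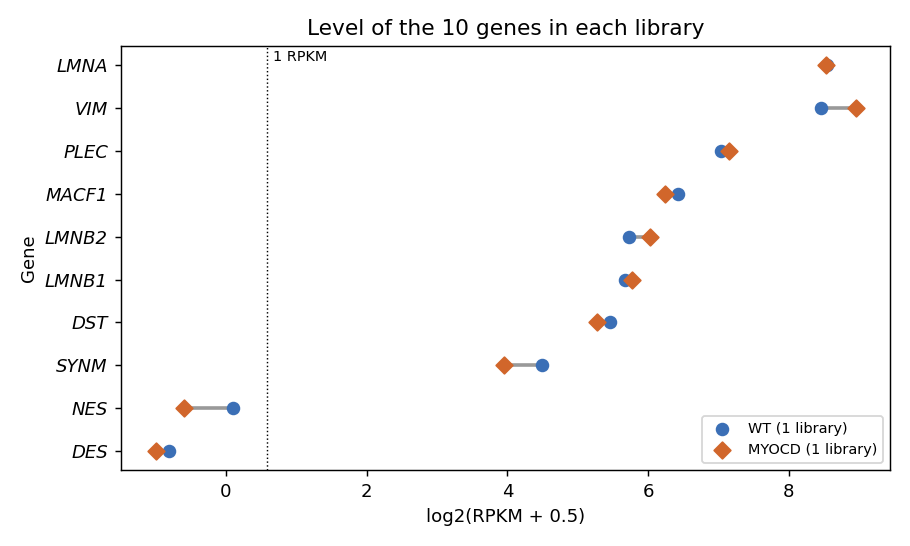
Level of each of the 10 genes as log2(RPKM + 0.5), with circles for the WT library, diamonds for the MYOCD library and a line joining them; there is 1 library a group and no error bar. LMNA led in WT and VIM in MYOCD, the order of the other genes was the same in both, and NES and DES lay left of the dotted line at 1 RPKM.

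LMNA hardly differed between the libraries. It had 371 RPKM in the WT library and 369 in the MYOCD library, a log2 change of -0.01 that was 0.00 after scaling to equal total RPKM and 0.08 with steady reference genes at 0. Of the genes counted, 98.1% had a change of larger size. LMNA was the most abundant of the 10 genes in WT and came after VIM in MYOCD, so that VIM over LMNA was 0.943 in WT and 1.34 in MYOCD. The gene occupies chromosome 1 from 156082573 to 156140089 (plus strand). GENCODE lists 25 transcripts for it, and the table has 1 value per gene, so lamin A and lamin C messages are not separated.

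The B-type lamins stood slightly higher in MYOCD. LMNB1 had 50.4 RPKM in the WT library and 53.9 in the MYOCD library, a log2 change of 0.10. LMNB2 had 52.6 and 64.4 RPKM, a log2 change of 0.29, the second highest of the genes counted here. The pair lay close together in WT, where LMNB2 over LMNB1 was 1.04, and further apart in MYOCD, where it was 1.19. LMNB2 lies on chromosome 19 from 2427638 to 2456996 on the minus strand and shares 257 nt of exon with TIMM13, a mitochondrial import gene on the same strand, which stood at 46.7 and 50.6 RPKM. LMNB1 lies on chromosome 5 from 126776623 to 126837020. Together the 3 lamin genes gave 474 RPKM in WT and 487 in MYOCD. LMNA held 78.3% of that sum in WT and 75.7% in MYOCD.

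The cytolinkers did not move in 1 direction. PLEC, whose product links intermediate filaments to hemidesmosomes, focal adhesions and the nucleus, had 130 RPKM in the WT library and 142 in the MYOCD library, a log2 change of 0.12. It lies on chromosome 8 from 143915147 to 143976734 on the minus strand. MACF1, which crosslinks actin and microtubules, had 85.2 RPKM in the WT library and 74.7 in the MYOCD library, a ratio of 0.877. DST, whose isoforms link keratin to hemidesmosomes in epithelia and actin to microtubules in nerve and muscle, had 43.5 RPKM in the WT library and 38.1 in the MYOCD library, a ratio of 0.876. MACF1 and DST, which are the closest relatives among the cytolinkers here, had nearly the same ratio, and MACF1 over DST was 1.96 in both libraries. Their log2 changes were both -0.19, and 32.7% of genes had a lower change than DST. PLEC over DST was 2.995 in WT and 3.71 in MYOCD. The cytolinker levels summed to 259 and 254 RPKM, of which PLEC held 50.3% in WT and 55.6% in MYOCD.

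The plakin values depend on very long gene models. The exons of DST on chromosome 6 (56457987 to 56954628) join to 42341 nt over 35 transcripts, and those of MACF1 on chromosome 1 (39081316 to 39487177) to 40739 nt over 34 transcripts. PLEC has 16991 nt over 15 transcripts. Their epithelial, muscle and neural isoforms start at different exons, which 1 value per gene does not separate, and no source used here states the model length that the authors divided by. The ratio between libraries does not depend on that length if 1 length was used for both.

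**Figure D2:**
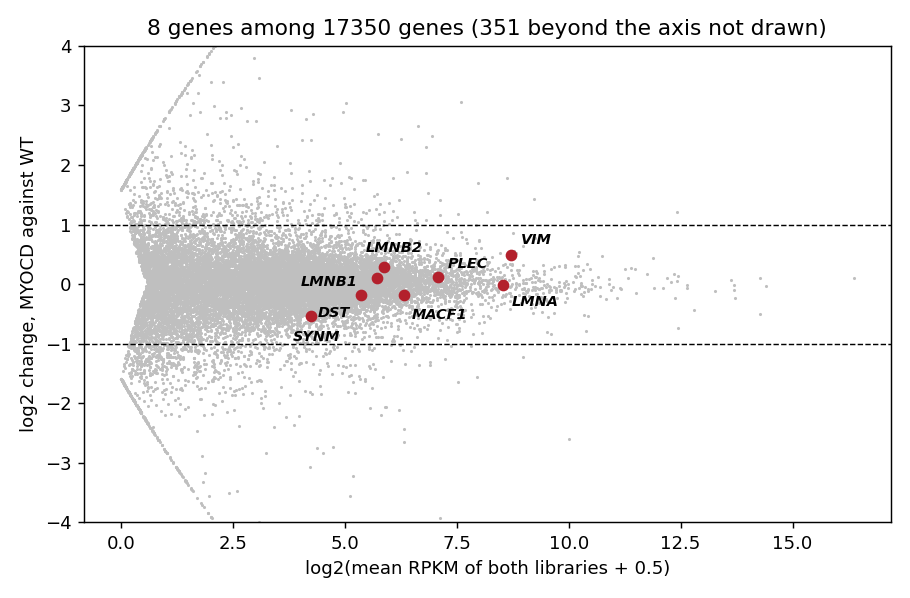
Log2 change against log2 of the mean RPKM for the 17350 genes counted (grey), with the 8 counted genes of this group in red; dashed lines mark 2-fold, and 351 genes beyond a log2 change of 4 in either direction are not drawn. All 8 red points lie between the dashed lines, from SYNM at -0.54 to VIM at 0.49.

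As a group, 8 of the 10 genes were counted, and 0 of the 8 were higher and 0 lower by 2-fold or more. Over all genes counted, 5.42% were higher and 6.35% lower, together 11.8%, so a count of 0 among 8 genes is near the background. At a threshold of 1.5-fold the count remained 0 of 8, against 11.6% of all genes higher and 13.2% lower, together 24.8%. Among genes with at least 50 RPKM in a library the share beyond 2-fold was 11.3%, and among protein-coding genes with at least 1 RPKM it was 6.11%. Of the 8 genes 4 stood above 0 (VIM, LMNB2, PLEC and LMNB1) and 4 below (LMNA, MACF1, DST and SYNM). LMNA crossed 0 under the scalings named above. Their median log2 change was 0.04, beside -0.00 over all genes counted.

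**Figure D3:**
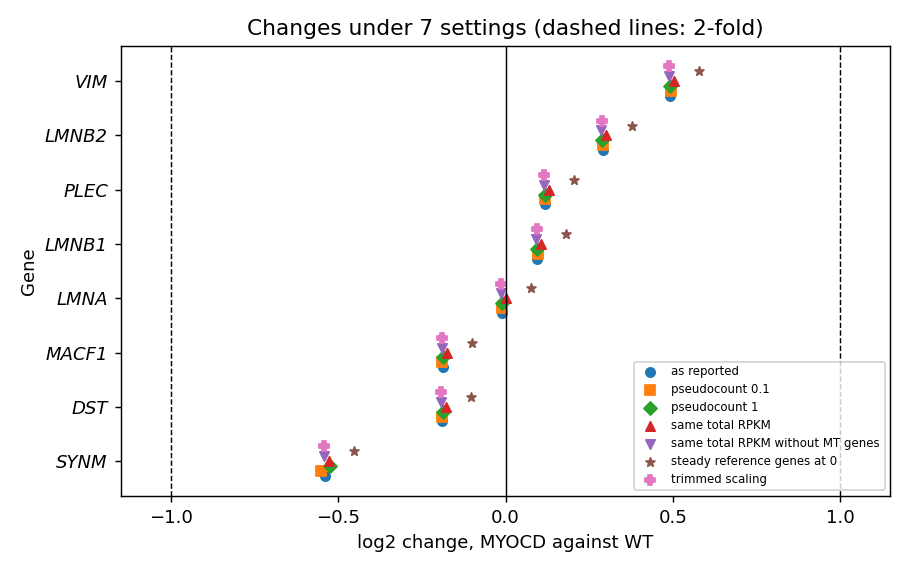
Log2 change of the 8 counted genes, MYOCD against WT, under 7 settings of pseudocount and scaling, with 1 marker shape for each setting; the solid line is 0 and the dashed lines are 2-fold. Setting the steady reference genes to 0 (stars) shifts each gene to the right, VIM to 0.58 and SYNM to -0.45, and no gene crosses a dashed line under any of the 7.

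Other filament genes of the cytoplasm were read beside these. Of 17 genes listed 10 were counted, 0 were higher and 1 was lower by 2-fold or more, with a median of -0.08 that was 0.01 with steady reference genes at 0. The shares over all genes counted were 5.42% higher and 6.35% lower, so this count is near the background. The gene called lower was BFSP1, a lens filament gene, at 1.998 RPKM in the WT library and 0.633 in the MYOCD library, a call not made with a pseudocount of 1 RPKM. BFSP1 passed the filter through the WT library only, so it could stand only below 0. The simple epithelial keratins KRT8 and KRT18, which pair with each other, stood at 1523 and 1647 RPKM in WT and at 1059 and 1134 in MYOCD, with ratios of 0.695 and 0.688. KRT7, another simple keratin, stood higher in MYOCD, at 996 and 1386 RPKM, a ratio of 1.39 beside the 1.41 of VIM. KRT19 stood at 2.94 and 3.24 RPKM. Keratin genes thus stood on both sides of 0, each by less than 2-fold. Of the 6 epithelial markers, these keratins among them, 4 stood above 0, and CDH1 had 35.0 and 35.8 RPKM. EPCAM, at 0.889 and 2.57 RPKM, was called higher, beside 5.42% of all genes counted. That call was not made with a pseudocount of 1 RPKM. EPCAM passed the filter through the MYOCD library only, so it could stand only above 0, and it is 1 of the 4 above 0. The sum of KRT8 and KRT18 was 9.05 times the level of VIM in WT and 4.45 times in MYOCD, so the level of this pair exceeded that of VIM in both libraries. This sum leaves out KRT7, which stood higher in MYOCD, and KRT81, at 421 and 424 RPKM.

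For partners of the lamins, as for the lists that follow, the share called over all genes is again 11.8%, and small counts near it are no result about a list. Of 15 genes of the lamina and of the LINC complex, which joins the nucleus to the cytoskeleton, 14 were counted, 0 were called in either direction, and the median was 0.08. The most abundant were BANF1 (172 and 185 RPKM in WT and MYOCD), which binds DNA and LEM proteins, TMPO (105 and 123), which encodes LAP2 proteins, and LBR (66.3 and 83.4), a receptor of B-type lamins. The gene nearest to a call was the nesprin gene SYNE2, at 9.66 and 4.80 RPKM, a ratio of 0.497 and a log2 change of -0.94 on the scale with 0.5 RPKM added, named after its values were seen. Of 6 genes related to prelamin and its processing, 6 were counted and 0 were called, with a median of 0.12. ZMPSTE24, the protease that matures lamin A, stood at 47.2 and 43.9 RPKM, FNTA, a farnesyltransferase subunit, at 42.8 and 46.3, and the methyltransferase gene ICMT at 37.9 and 49.5.

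Among partners of the cytolinkers, 6 of 8 other plakin and hemidesmosome genes were counted and 0 were called, with a median of 0.03. ITGB4, the integrin chain that plectin binds in hemidesmosomes, had 60.5 RPKM in the WT library and 82.3 in the MYOCD library. Its partner ITGA6 stood at 40.5 and 41.0, and the tetraspanin gene CD151 at 157 and 165. The plakin gene PPL, named after its values were seen, stood at 3.98 and 1.75 RPKM, a ratio of 0.440. Its log2 change of -0.99 lay just under the call and was -1.14 with a pseudocount of 0.1 RPKM, which would call it lower, so the count of 0 in this list depends on the pseudocount. Of 12 microtubule partners all 12 were counted, with a median of 0.07. One was called higher, CAMSAP3, which anchors microtubule minus ends through MACF1 in epithelia, at 0.728 RPKM in the WT library and 2.73 in the MYOCD library. CAMSAP3 passed the filter through the MYOCD library only, so it could stand only above 0, and the median includes it. The plus-end gene MAPRE1 stood at 111 and 116 RPKM and CLASP2 at 30.4 and 32.3.

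Of 10 kinases that act on these filaments and small heat shock proteins that bind them, 9 were counted and 0 were called, with a median of -0.01 that was 0.08 with steady reference genes at 0. HSPB1 had 284 RPKM in the WT library and 337 in the MYOCD library, and the mitotic kinase genes CDK1 and PLK1 at 116 and 88.8 in WT and at 86.7 and 87.3 in MYOCD. Of 7 genes whose products hold synemin or desmin at the membrane or at adhesions, 6 were counted and 1 was called higher, with a median of 0.25. This was dystrophin (DMD), at 0.101 RPKM in the WT library and 2.48 in the MYOCD library, so it passed the filter through the MYOCD library only. DMD could thus stand only above 0, and the median includes it. The log2 changes of the other counted genes were -0.48 (DTNB), -0.47 (UTRN), 0.10 (TLN1), 0.40 (VCL) and 0.46 (ZYX). The adhesion genes VCL and TLN1 stood at 81.6 and 90.1 RPKM in WT and at 107.7 and 96.5 in MYOCD, and the dystrophin relative UTRN, named after its values were seen, at 26.1 and 18.8.

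**Figure D4:**
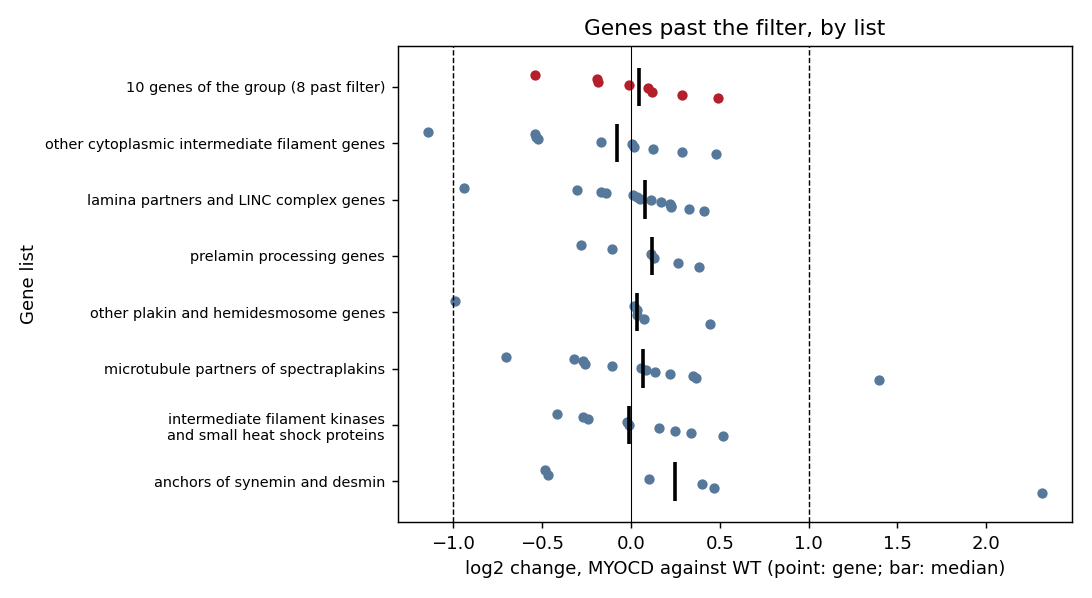
Log2 change, MYOCD against WT, of each counted gene (points) of the group described here (top row, red) and of the 7 lists of related genes, with the median of each list as a black bar; dashed lines mark 2-fold. Medians lie between -0.08 and 0.25, and 3 genes lie beyond the dashed lines, BFSP1 on the lower side and CAMSAP3 and DMD on the higher. The medians include these 3 genes, of which BFSP1 passed the filter through WT only and CAMSAP3 and DMD through MYOCD only.

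Vimentin is also made by fibroblasts and blood cells, and nestin by neural progenitors. Of 9 fibroblast markers 7 lay under 1 RPKM in both libraries, and their levels summed to 5.75 RPKM in WT and 16.2 in MYOCD, mostly COL1A1 (3.05 and 14.3). The other counted marker, THY1, went the other way (1.91 and 0.959 RPKM), but it passed the filter through the WT library only. Of the markers under the filter, PDGFRB (0.432 and 0.00968) stood lower in MYOCD. PDGFRA (0.0474 and 0.422), COL1A2 (0 and 0.1745), LUM (0.191 and 0.241) and COL3A1 (0.109 and 0.138) stood higher. DCN and FAP were listed at 0 in both. Blood cell markers summed to 20.9 and 26.8 RPKM, mostly CD68 (18.3 and 25.1), while CD14, the other counted one, stood at 2.31 and 1.17, and the median of the pair was -0.15, with PTPRC listed at 0 in both. Of 6 neural progenitor markers 4 lay under 1 RPKM in both. Of these, SOX1 and FABP7 were listed at 0, SOX2 stood at 0.588 and 0.983 RPKM and SOX10 at 0.263 and 0.0780. MSI1 stood at 1.17 and 2.49 RPKM. Its log2 change of 0.84 was 1.03 with a pseudocount of 0.1 RPKM, which would call it higher. PAX6, at 0.780 and 1.16, passed the filter through the MYOCD library only, so it could stand only above 0. The part of these markers in the VIM and NES values was not tested. In bulk RNA, fewer cells of a type and less RNA per cell cannot be told apart.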

How the data were processed

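RNA of A549 cells was analysed in 2 libraries, 1 WT and 1 MYOCD. The values are RPKM as the authors deposited them, per the file headers, and the key at the head of the table names the group of each column. Bowtie 0.12.2 and the builds GRCh38.p12 and mm8, a mouse assembly, are named in the submitters' processing notes without a role. The counting tool, annotation and strand setting are not stated in any source used here. Low values of gene models of at least 2000 nt with 1 transcript were searched for the step of 1 read. At the best of many step sizes, 30.6% (WT) and 32.9% (MYOCD) of these lay within 0.1 of a whole number. Chance gives 20% for 1 fixed step size and more for the best of many. Reads were therefore not recovered, depth is unknown and no count test or counting interval was computed.

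The table has 57979 rows and 56255 symbols, and for the 248 symbols on several rows the row with the higher mean was used. Changes were computed with a pseudocount of 0.5 RPKM, a minimum of 1 RPKM in at least 1 library and a threshold of 2-fold, in Python 3.11.15 with pandas 2.3.3. The call rule was run on simulated data, WT values multiplied by set factors without added noise, which checks its arithmetic only. Positions and exon unions came from GENCODE release 29 (GRCh38), which held all 10 genes, and promoters from RefSeq. Alternatives changed the pseudocount, filter, scaling and threshold. All 10 genes were to be named, and in each list of related genes those beyond 2-fold (up to 6), then the most abundant up to 3 names. The 10 genes and all lists were chosen with earlier results of these data known.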

Additional observations from a re-analysis of the deposited data

How the results depend on the processing

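Under the planned settings of pseudocount, filter, scaling and threshold, 0 of the counted genes of the group were called higher and 0 lower, by size alone. Their median log2 change of 0.04 kept its sign with both pseudocounts, all scalings and a minimum of 5 RPKM, and was -0.10 without a filter, where NES and DES enter. The counts over all genes, 940 higher and 1102 lower, were 450 and 510 with a minimum of 5 RPKM, 2007 and 2296 at 1.5-fold, and 372 and 382 among protein-coding genes alone, a setting chosen after seeing the data. VIM ranged from 0.49 to 0.58 and SYNM from -0.55 to -0.45 over 7 settings, while LMNA ranged from -0.01 to 0.08 and changed sign. DES was -0.75 with a pseudocount of 0.1 RPKM against -0.18 as reported. No paired analysis was possible because each group has 1 library. Without replicates, culture and library effects and MYOCD cannot be told apart, and with unknown depth the values of NES and DES have no error.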
